A study of Mus musculus with 6 samples.

Results

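The endothelial marker genes described here are 10, Pecam1, Cdh5, Tie1, Vwf, Eng, Emcn, Cldn5, Egfl7, Robo4 and Esam. They were taken by name from the 54532 rows of the deposited expression table, where each name had 1 row. All 10 had a mean FPKM of 0.1 or more and were tested, as were 18035 genes in all. Endothelial cells line the blood vessels and the chambers of the heart, and the capillaries they form run along every muscle fibre. Neighbouring endothelial cells are sealed by adherens and tight junctions, sense flow and growth factors through surface receptors, and release proteins into the blood and the surrounding matrix. Genes that these cells transcribe and that cardiomyocytes and fibroblasts largely lack are used to read the endothelial content of a tissue sample.

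RNA was sequenced from the hearts of 3 homozygous Mc4r knockout mice (Mc4r KO) and 3 wild-type littermates (WT), with 1 library per mouse. Mc4r encodes the melanocortin receptor of the hypothalamus that restrains feeding, and its loss causes obesity. All the animals were 12 weeks old, were kept on a C57B/6/N background with standard chow, and came from matings of heterozygous parents. The titles of the samples say muscle, whereas the tissue field says heart. The methods of the study name heart tissue, and its discussion names left ventricular tissue for the sequencing. Male mice are named there for the cardiac function measurements, and the sex of the sequenced mice is not given separately. The values are FPKM, fragment counts scaled to gene length and to a factor for each library, and levels of different genes are compared only on this scale. That factor was not the number of reads on genes alone. On 1 kb, 3 reads gave 0.2128 FPKM in WT replicate 1 (14767929 reads) and 0.1933 in Mc4r KO replicate 1 (14691076 reads).

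Between 14691076 and 16047003 reads were counted on genes per library. Mc4r itself had 2 reads in WT replicate 3 and 0 in the other 5 libraries, so the knockout could not be checked from it. Cardiomyocyte markers such as Myh6, Tnnt2 and Actc1 were high in all 6 libraries, as in heart tissue. The mitochondrial chromosome accounted for 47.1% to 59.3% of all FPKM in WT libraries and for 43.0% to 46.6% in Mc4r KO libraries. The groups did not overlap in this share, and WT replicate 3, at 47.1%, lay nearest the Mc4r KO libraries. A fit with the share as a covariate therefore cannot cleanly separate it from genotype. WT replicate 3 stood apart from the other WT libraries. Its log2 values correlated across genes at 0.946 and 0.952 with them and at 0.962 with Mc4r KO replicate 1. In the mitochondrial share it was WT replicates 1 and 2, at 59.3% and 57.4%, that lay far from the Mc4r KO libraries. Fits without WT replicate 3 keep those WT libraries, so genotype and this share are harder to tell apart in them. Because each library is bulk heart tissue, fewer endothelial cells and less RNA of a gene per cell cannot be told apart.

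Positions are those of GRCm38 (mm10), the build of the deposited table. Short stretches before the RefSeq start sites (GRCm38.p6) are shown because ETS factors such as Erg and Fli1, which bind a GGAA core, are well-known regulators of endothelial genes. RefSeq promoters were found for 6 of the 10 genes. Capitals mark GGAAG or its reverse complement CTTCC, searched on both strands, and bases inside exons of GENCODE M21 were removed. The stretches are Tie1 at chr4:118490062-118490099 on the minus strand, Eng at chr2:32646345-32646594, Egfl7 (the second of its 3 listed starts) at chr2:26583615-26583863, Emcn at chr3:137340828-137341066 and Cldn5 at chr16:18776597-18776846, the last 4 on the plus strand.
Tie1: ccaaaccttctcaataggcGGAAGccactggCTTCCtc
Eng: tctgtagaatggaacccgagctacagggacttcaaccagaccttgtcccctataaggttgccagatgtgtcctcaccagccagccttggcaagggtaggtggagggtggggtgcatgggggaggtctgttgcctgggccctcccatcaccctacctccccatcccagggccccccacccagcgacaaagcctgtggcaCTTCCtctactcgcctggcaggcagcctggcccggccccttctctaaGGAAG
Egfl7: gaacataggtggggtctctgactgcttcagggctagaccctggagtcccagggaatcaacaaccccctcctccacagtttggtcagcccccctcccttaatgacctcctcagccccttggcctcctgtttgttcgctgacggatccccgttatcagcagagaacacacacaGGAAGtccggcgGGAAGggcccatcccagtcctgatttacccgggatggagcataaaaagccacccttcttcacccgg
Emcn: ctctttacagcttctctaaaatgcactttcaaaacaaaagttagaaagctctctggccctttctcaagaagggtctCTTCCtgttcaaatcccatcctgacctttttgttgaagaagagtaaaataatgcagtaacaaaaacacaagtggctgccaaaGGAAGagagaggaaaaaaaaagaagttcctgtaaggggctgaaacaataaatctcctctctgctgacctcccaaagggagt
Cldn5: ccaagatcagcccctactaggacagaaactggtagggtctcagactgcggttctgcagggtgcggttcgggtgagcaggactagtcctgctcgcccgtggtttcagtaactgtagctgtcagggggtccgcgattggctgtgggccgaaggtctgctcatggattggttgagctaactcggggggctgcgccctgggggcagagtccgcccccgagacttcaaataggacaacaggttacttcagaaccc

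Over the full 250 bases before each start, GGAAG occurred 6 times before the Tie1 start and 2 times before that of Eng, Robo4 and Emcn, and it did not occur before Cldn5. Of the 3 Egfl7 starts, the first had 4 matches, the second 2 and the last 0. Of the 250 bases before the Tie1 start 212 lay inside exons, and 2 of its 6 matches were outside them. For Robo4 75 bases lay inside exons, and 0 of its 2 matches were outside. The word is common, since 64.1% of all 32851 listed promoters held it at least once and 10.7% held it 3 times or more. These matches are a description of letters, not of binding.

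No endothelial marker was called differentially expressed between Mc4r KO and WT mice. A call needed a log2 fold change beyond 0.75 in either direction together with an adjusted p under 0.05 in limma, a linear model fitted to log2(FPKM + 0.1) of all 18035 genes with Benjamini-Hochberg adjustment over them. By that rule 0.46% of all genes tested were called, 0.316% higher and 0.144% lower. Nor was any marker called with array weights, limma voom or without WT replicate 3, where 2.41%, 1.76% and 3.5% of all genes were, or over protein-coding genes alone, where 1.51% were. Without the limit on the fold change, 0 of the 10 markers passed either, against 0.582% of all genes. At an unadjusted p under 0.05, 3 markers (Tie1, Esam and Egfl7) were higher in the Mc4r KO mice and none was lower, where 20.9% of all genes passed, 12% higher and 8.83% lower. The same 3 genes were the only markers whose libraries did not overlap between the groups, and 14.1% of all genes were higher without overlap. The median log2 fold change of the 10 markers was 0.20, beside -0.011 for all genes tested, and 7 of the 10 were positive where 48.8% of all genes were.

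**Figure D1:**
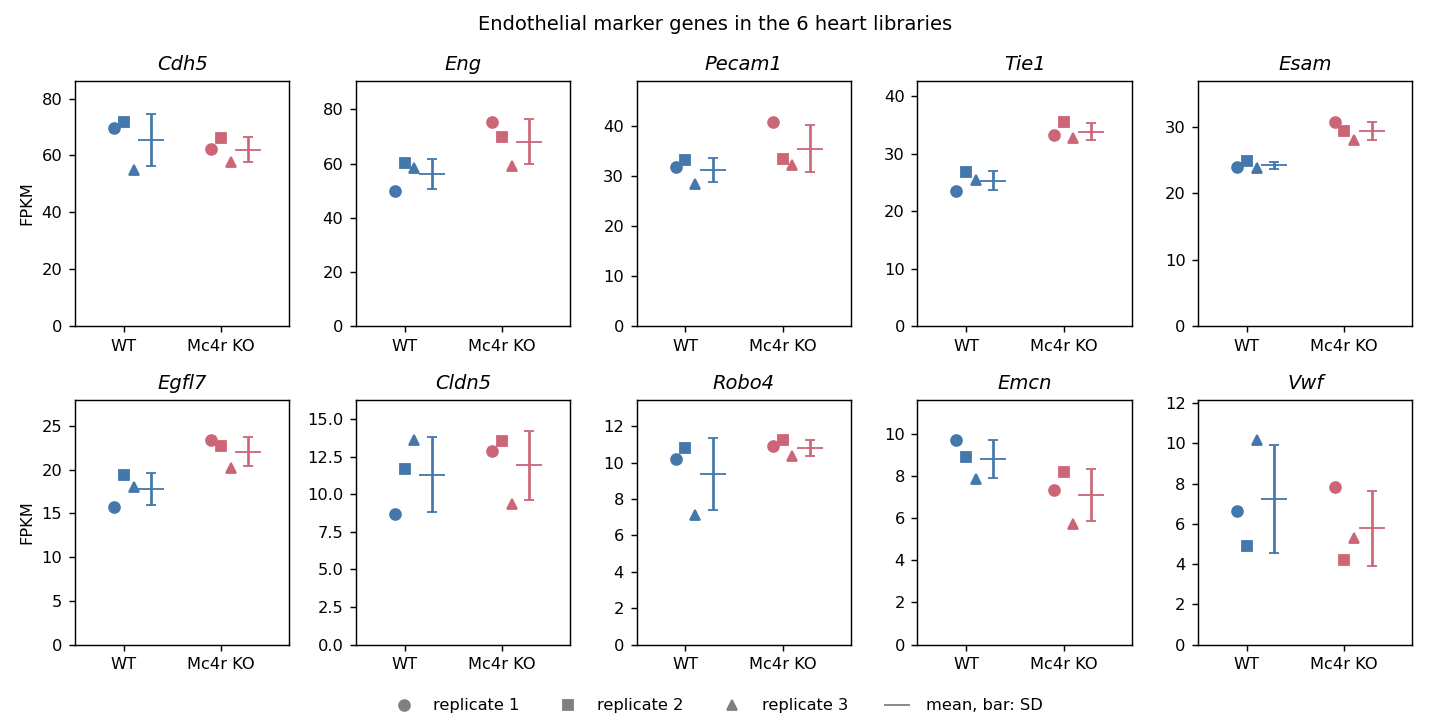
FPKM of the 10 endothelial marker genes (linear axes from 0) in each WT library (blue) and each Mc4r KO library (red), with the replicate given by the symbol and the mean ± SD of 3 libraries beside the points. Tie1, Esam and Egfl7 are the panels in which all 3 Mc4r KO points lie above all 3 WT points, and Vwf has the widest spread within a group.

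In order of their mean level over the 6 libraries the markers ran from Cdh5 (63.7 FPKM) and Eng (62.1) through Pecam1 (33.3), Tie1 (29.6), Esam (26.8), Egfl7 (19.9), Cldn5 (11.63) and Robo4 (10.1) to Emcn (7.97) and Vwf (6.50). Cdh5 stood above 97.0% of the genes tested and Vwf above 74.5%. In that order the ranges of neighbouring genes overlapped except at 3 steps, from Eng to Pecam1, from Esam to Egfl7 and from Egfl7 to Cldn5. The level of each marker rested on at least 173 reads in every library.

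Of the 4 junction proteins, Cdh5 encodes VE-cadherin, the adhesive protein of endothelial adherens junctions. Cdh5 (chromosome 8, 104101625 to 104144511) was at 69.7, 71.8 and 54.8 FPKM in the WT libraries and at 62.4, 66.1 and 57.5 in those of Mc4r KO mice. The groups overlapped, and WT replicate 3 was the lowest library of all. Its log2 fold change was -0.070 (standard error 0.12, limma adjusted p = 0.786), with a 95% interval from -0.36 to 0.22. It became 0.0017 without WT replicate 2, 0.26 with the mitochondrial share as a covariate and -0.19 without WT replicate 3.

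Pecam1, a homophilic adhesion protein of endothelial cells that platelets and leukocytes also carry, was at 31.9, 33.2 and 28.5 FPKM in the WT libraries and at 40.8, 33.5 and 32.2 in those of Mc4r KO mice. Mc4r KO replicate 1 was above the other 5 libraries, which lay close together. The log2 fold change of Pecam1 (chromosome 11, 106654217 to 106750628) was 0.18 (interval -0.090 to 0.45, limma adjusted p = 0.419), 0.076 without that library, 0.12 without WT replicate 3 and -0.014 after scaling outside the mitochondrial chromosome.

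Esam, an immunoglobulin-like adhesion protein of endothelial tight junctions that platelets also carry, differed little within the groups. It was at 24.0, 24.8 and 23.8 FPKM in the WT libraries and at 30.7, 29.4 and 28.0 in those of Mc4r KO mice, and the groups did not overlap. The means were 24.2 ± 0.575 and 29.4 ± 1.35 (SD, n = 3 each). Esam (chromosome 9, 37528078 to 37538319) had a log2 fold change of 0.28 (standard error 0.076, limma adjusted p = 0.116), with an interval from 0.10 to 0.46 and an exact permutation p of 0.1, the smallest that 3 against 3 allow.

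Cldn5, the claudin that seals endothelial tight junctions, was the shallowest of the markers, with 173 to 328 reads per library. It was at 8.66, 11.7 and 13.6 FPKM in the WT libraries and at 12.9, 13.6 and 9.33 in those of Mc4r KO mice, and the groups overlapped almost fully. Cldn5 (chromosome 16, 18776847 to 18778262) had a log2 fold change of 0.082 (interval -0.40 to 0.56, limma adjusted p = 0.855). Its sign changed under 5 of 22 alternatives, some of which, such as those with another filter or call rule, could not change the estimate. Without WT replicate 3 it was 0.22.

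Tie1 came nearest to the threshold. It encodes the orphan partner of the angiopoietin receptor Tek, which keeps vessels quiescent. Tie1 (chromosome 4, 118471191 to 118490061) was at 23.5, 26.9 and 25.4 FPKM in the WT libraries and at 33.3, 35.5 and 32.7 in those of Mc4r KO mice. All 3 Mc4r KO libraries were above all 3 WT libraries, with means of 33.9 ± 1.48 and 25.3 ± 1.68 (SD, n = 3 each). The fold change was 1.34, with a 95% interval from 1.17 to 1.54. On the log2 scale this was 0.42 (standard error 0.084, limma adjusted p = 0.0744; exact permutation p = 0.1).

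Over 22 alternatives the log2 fold change of Tie1 was positive throughout, from 0.23 to 0.47, and the adjusted p ran from 0.0344 to 0.343 (limma). Alternatives that changed only the filter, the genes tested, the variance model, the block or the call rule left it at 0.42. In those fits its sign could not change. The adjusted p was under 0.05 in 4 of the 22, namely limma voom on the reads recovered from the FPKM (0.0344), array weights (0.0404), the fit without WT replicate 3 (0.0436) and protein-coding genes only (0.0469). In these 4 fits 4.58%, 6.37%, 8.56% and 3.4% of all genes had an adjusted p under 0.05. Tie1 was not called in any of these 4 fits, since its log2 fold change was below 0.75. Nor was it called without a limit on the fold change, where its adjusted p was 0.0744 (limma).

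Eng encodes endoglin, the co-receptor for BMP and TGF-beta ligands in endothelial cells. Eng was at 49.8, 60.0 and 58.3 FPKM in the WT libraries and at 75.4, 69.8 and 59.2 in those of Mc4r KO mice. Only WT replicate 2 and Mc4r KO replicate 3 crossed. Eng (chromosome 2, 32646595 to 32682669) had a log2 fold change of 0.28 (standard error 0.12, interval -0.0042 to 0.56, limma adjusted p = 0.246). Exons of Fpgs on the opposite strand cover 1.51% of its exonic bases.

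Robo4, the endothelial member of the roundabout receptors that stabilises vessels, was at 10.2, 10.8 and 7.12 FPKM in the WT libraries and at 10.9, 11.2 and 10.4 in those of Mc4r KO mice. WT replicate 3 was the lowest library, and the groups overlapped. The log2 fold change of Robo4 (chromosome 9, 37401897 to 37415115) was 0.23 (interval -0.15 to 0.60, limma adjusted p = 0.468) with that library and 0.042 without it. With the mitochondrial share as a covariate it was 0.69 (limma adjusted p = 0.229).

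Egfl7 encodes a secreted matrix protein that guides vessel tube formation. Egfl7 was at 15.8, 19.4 and 18.02 FPKM in the WT libraries and at 23.4, 22.7 and 20.1 in those of Mc4r KO mice, without overlap. The means were 17.7 ± 1.84 and 22.1 ± 1.71 (SD, n = 3 each). Egfl7 (chromosome 2, 26580014 to 26593120) had a log2 fold change of 0.32 (standard error 0.11, interval 0.063 to 0.57, limma adjusted p = 0.166; exact permutation p = 0.1). Exons of genes on the same strand (Gm20532 and Mir126a) cover 9.41% of its exonic bases and exons of genes on the opposite strand 3.41%, so part of its reads may have been lost or assigned elsewhere.

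The Egfl7 gene also holds the hairpin of miR-126, the best-known endothelial microRNA, which is why its mature sequence is shown. It lies at chr2:26591402-26591423 on the plus strand of GRCm38.p6, and capitals mark the seed, bases 2 to 8.
mmu-miR-126a-3p: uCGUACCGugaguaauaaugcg
Mir126a and Mir126b had 0 reads in all 6 libraries. These libraries were made from polyadenylated RNA, and the hairpin overlaps an exon of an Egfl7 transcript in GENCODE M21, so this says nothing of the microRNA.

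Vwf encodes von Willebrand factor, the clotting protein that endothelial cells store and release, with higher levels in veins, arteries and endocardium than in capillaries. Vwf was at 6.63, 4.90 and 10.2 FPKM in the WT libraries and at 7.83, 4.21 and 5.28 in those of Mc4r KO mice. It had the widest spread of the 10 markers, with an SD of 37.0% of the mean in the WT mice and 32.2% in the Mc4r KO mice, and the groups overlapped. The log2 fold change of Vwf (chromosome 6, 125546774 to 125686679) was -0.30 (standard error 0.31, interval -1.02 to 0.42, limma adjusted p = 0.606). Without WT replicate 3 it was -0.028, and with the mitochondrial share as a covariate -1.06 (limma adjusted p = 0.399). Platelets carry the protein as well, and the platelet gene Pf4 was at 20.2, 14.1 and 22.8 FPKM in the WT libraries and at 14.8, 11.05 and 11.2 in those of Mc4r KO mice. Its part in the Vwf level was not tested.

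Emcn encodes endomucin, a sialomucin of the glycocalyx of capillary and venous endothelium. Emcn was the other marker with a negative difference of this size, at 9.72, 8.91 and 7.87 FPKM in the WT libraries and at 7.37, 8.23 and 5.75 in those of Mc4r KO mice. Only Mc4r KO replicate 2 and WT replicate 3 crossed. The log2 fold change of Emcn (chromosome 3, 137341067 to 137432185) was -0.32 (standard error 0.15, interval -0.67 to 0.038, limma adjusted p = 0.287). It was negative under all 22 alternatives, from -0.51 to -0.018, though as for Tie1 some of them could not change the estimate.

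The size of these differences depended on the scaling of the libraries. The deposited FPKM have the same median ratio in all 6 libraries. When they were divided instead by their sum outside the mitochondrial chromosome, all genes had a median of -0.19 (log2 fold change) and the 10 markers one of 0.0093. Quantile normalization gave -0.014 and 0.073. Tie1 was 0.23 after scaling outside the mitochondrial chromosome and its libraries still did not overlap, Esam and Egfl7 overlapped, and Emcn, at -0.51, then did not. On that scale 6.42% of all genes were higher and 22.3% lower without overlap.

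**Figure D2:**
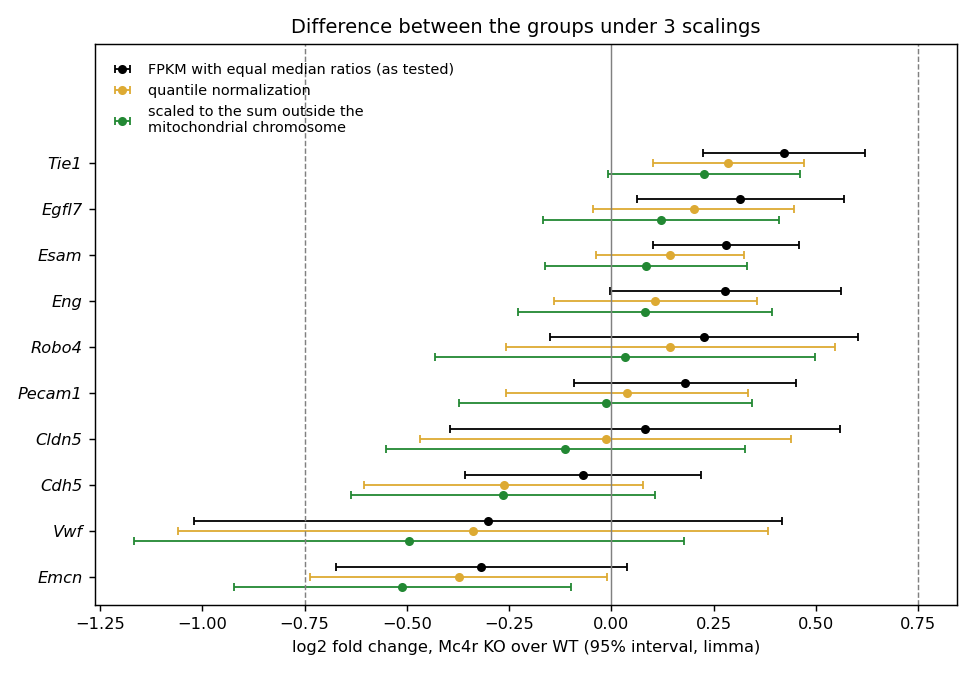
Log2 fold change of the Mc4r KO mice over the WT mice (horizontal axis) for the 10 markers, with the 95% interval from limma, under the scaling that was tested (black), quantile normalization (yellow) and division by the summed FPKM outside the mitochondrial chromosome (green). Dashed lines mark a log2 fold change of 0.75 in either direction. Every interval of the tested scaling except that of Vwf lies within them, and Tie1 and Emcn stay at the ends under all 3 scalings.

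The intervals limit how large a difference could have been missed. With the deposited FPKM the 95% interval of 9 of the 10 markers lay within a log2 fold change of 0.75 in both directions, and for Vwf it reached -1.02. Cdh5, the most strongly expressed marker, was between 0.780 and 1.16 times its WT level. After scaling outside the mitochondrial chromosome 8 of the 10 intervals lay within that limit, and that of Emcn reached -0.92. Cdh5 was then between 0.643 and 1.08 times its WT level. With the mitochondrial share as a covariate 7 lay within the limit, and Robo4 reached 1.02 and Vwf -1.97. In that fit Cdh5 was between 0.999 and 1.44 times its WT level. In the fits without 1 library the number within the limit ran from 6 (without WT replicate 2) to 8. A p above the threshold does not show that the levels were equal.

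Because a ratio of genes within 1 library does not depend on the scaling, the markers were also set against each other. Relative to the mean log2 level of the 10 markers in the same library, Tie1, Egfl7, Esam and Eng were higher in every Mc4r KO library than in any WT library and Emcn was lower. The differences were 0.31 for Tie1, 0.21 for Egfl7, 0.17 for Esam, 0.17 for Eng and -0.43 for Emcn, each with an exact permutation p of 0.1, the smallest possible. The reference is the mean of the markers themselves, so their differences are tied, and the lower values of Emcn and Vwf raise those of the others. Eng overlapped between the groups in FPKM and did not on this scale. On this scale 5.9% of all genes tested were higher and 16.6% lower without overlap. Nearly all of those genes lie outside the reference and are not tied in this way, so these shares are not a like background. The remaining 5 markers overlapped. Vwf differed by -0.41 (exact permutation p = 0.4), and its libraries ran from -2.32 to -0.93.

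Of the 45 ratios between pairs of markers, 11 did not overlap between the groups, and 6 of those 11 had Emcn as a partner and 4 had Cdh5. Among all pairs of the 15827 tested genes with values above 0 in every library, 25.6% of ratios did not overlap, so that the share of the markers was near the background. The 45 ratios also share their 10 genes. The ratio of Tie1 to Emcn, chosen after its values were seen, was 2.42, 3.02 and 3.23 in the WT libraries and 4.52, 4.32 and 5.69 in those of Mc4r KO mice (2.89 ± 0.420 and 4.84 ± 0.740, SD, n = 3 each; exact permutation p = 0.1). Over the 6 libraries Eng and Egfl7 were the most alike pair, with a Pearson correlation of 0.969 between their log2 levels, while Robo4 and Vwf had a correlation of -0.776. These values rest on 6 libraries that share their scaling, 3 of them in each group, and are a description.

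**Figure D3:**
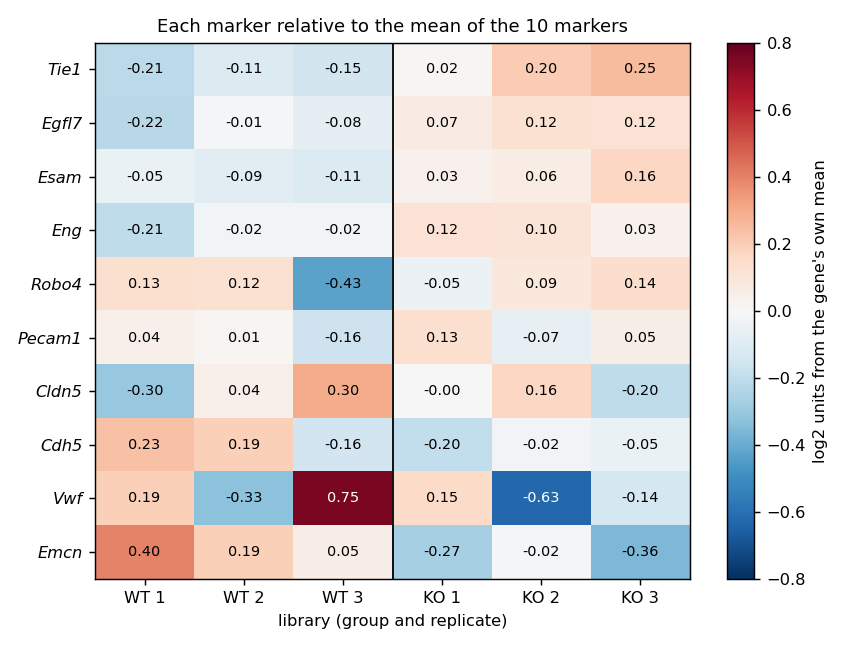
Level of each marker relative to the mean log2 level of the 10 markers in the same library, minus the marker's own mean over the 6 libraries (log2 units, red higher and blue lower), with WT libraries left of the line and Mc4r KO libraries right of it. Tie1, Egfl7, Esam and Eng are higher in all 3 Mc4r KO libraries, Emcn is lower in them, and Vwf is highest in WT replicate 3 at 0.75.

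The ligands, co-receptors and junction partners of these proteins gave no call either, beside 0.46% of all genes tested. Of 16 such genes 14 passed the filter, 5 with a positive and 9 with a negative log2 fold change, and their median was -0.12. Of all genes 48.8% were positive. Without overlap between the groups 0 of the 14 were higher and 2 lower, beside 14.1% and 12.4% of all genes. Tek, the signalling partner of Tie1, was at 17.0, 17.8 and 15.7 FPKM in the WT libraries and at 17.4, 17.1 and 17.0 in those of Mc4r KO mice (log2 fold change 0.032, limma adjusted p = 0.857). Its range was narrow and the groups overlapped, unlike those of Tie1. Angpt1, the activating ligand of Tek, had the lowest value of the list at -0.72 (limma adjusted p = 0.355), with 13.9 FPKM in WT replicate 3 and between 3.29 and 5.82 in the other 5 libraries, and it was -0.26 without WT replicate 3. The antagonist Angpt2 was low, between 0.794 and 1.56 FPKM, and Ptprb, the phosphatase that restrains Tek and VE-cadherin signalling, was at -0.070 (limma adjusted p = 0.816), and at -0.22 without WT replicate 3.

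Of the receptor partners of Eng, Acvrl1, the receptor kinase of its BMP ligands, had the highest value of the list at 0.22 (limma adjusted p = 0.355) with overlap between the groups. Bmpr2, the type II receptor kinase, was at 8.03, 7.52 and 6.50 FPKM in the WT libraries and at 6.08, 6.23 and 6.003 in those of Mc4r KO mice, without overlap (log2 fold change -0.26, limma adjusted p = 0.223). The circulating ligand Gdf2 had at most 8 reads in any library. Unc5b, a receptor to which Robo4 binds, was also without overlap, at 5.70, 7.19 and 5.59 FPKM against 5.53, 4.88 and 3.85 (log2 fold change -0.37, limma adjusted p = 0.252). The axon guidance ligands Slit2 and Slit3 were at -0.51 (limma adjusted p = 0.470) and -0.49 (limma adjusted p = 0.387), and at -0.22 and -0.17 without WT replicate 3.

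The catenins that tie VE-cadherin to the cytoskeleton are shared with the junctions of cardiomyocytes, so their level is not an endothelial one. Ctnnb1, Ctnna1, Ctnnd1, Jup and the tight junction scaffold Tjp1 had log2 fold changes between -0.18 and 0.16, with adjusted p between 0.366 and 0.981 (limma). Adamts13, the protease that cleaves von Willebrand factor, had 0 reads in every library. It is made mainly in liver.

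Other genes known from endothelium were split in their direction. Of 22 further pan-endothelial genes 0 were called, beside 0.46% of all genes tested. There were 13 positive and 9 negative, where 48.8% of all genes were positive, and their median log2 fold change was 0.022. The sign of that median depended on the processing, with -0.053 without WT replicate 3, -0.063 after quantile normalization and -0.17 after scaling outside the mitochondrial chromosome. The libraries did not overlap for 2 that were higher (Flt1 and Sox17) and 5 that were lower (Klf2, Cd34, Erg, Mmrn2 and Fli1), beside 14.1% and 12.4% of all genes. Flt1, a VEGF receptor that also acts as a decoy, was at 15.3, 16.2 and 12.8 FPKM in the WT libraries and at 22.3, 20.8 and 18.6 in those of Mc4r KO mice (log2 fold change 0.48, limma adjusted p = 0.102). Klf2, the flow-responsive transcription factor, was at 57.8, 57.6 and 67.8 FPKM in the WT libraries and at 46.3, 35.2 and 49.1 in those of Mc4r KO mice (log2 fold change -0.50, limma adjusted p = 0.124). These 2 genes were the ends of the list.

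Lists of the vessel types differed in their medians, but 0 of their genes were called, beside 0.46% of all genes tested. The median log2 fold change was 0.19 for 12 capillary genes, 0.097 for 10 arterial genes, -0.30 for 11 venous and endocardial genes and 0.23 for 8 rows of lymphatic genes, in which Ccl21a has a row for each of 2 identifiers and the copies may share reads. After scaling outside the mitochondrial chromosome these medians were -0.0078, -0.095, -0.48 and 0.042, against -0.19 for all genes. Without WT replicate 3 they were 0.069, 0.067, -0.17 and 0.38. The difference between the lists was not tested.

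Among the capillary genes 4 were higher and 1 lower without overlap between the groups, beside 14.1% and 12.4% of all genes. Gpihbp1, which carries lipoprotein lipase to the capillary lumen and is named because it alone of all listed genes had an adjusted p under 0.05, was at 24.7, 28.5 and 27.5 FPKM in the WT libraries and at 48.8, 41.9 and 41.4 in those of Mc4r KO mice. Its log2 fold change of 0.71 (standard error 0.10, limma adjusted p = 0.0434) was below the limit of 0.75. Timp4, an inhibitor of matrix metalloproteinases, was the highest of the list at 0.96 (limma adjusted p = 0.0996), and WT replicate 3 had the lowest level, 5.86 FPKM, beside 10.96 and 10.7 in the other WT libraries. Without that library Timp4 was at 0.67 (limma adjusted p = 0.0200). Meox2, a homeobox factor of heart capillary endothelium, was the lowest at -0.85 (limma adjusted p = 0.0996), with 12.4, 10.8 and 8.06 FPKM in the WT libraries and 7.26, 5.10 and 4.89 in those of Mc4r KO mice. It was called without WT replicate 3, at -1.02 (limma adjusted p = 0.0440).

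Of the arterial genes, Sema3g, a secreted semaphorin, was at 5.45, 7.18 and 7.54 FPKM in the WT libraries and at 13.0, 10.7 and 10.7 in those of Mc4r KO mice (log2 fold change 0.77, limma adjusted p = 0.0718). It was called under 5 of the 22 alternatives, among them the fit without WT replicate 3. Bmx, an arterial tyrosine kinase, was the lowest at -0.93 with overlap between the groups (limma adjusted p = 0.232). In the venous and endocardial list only Ephb4, the venous receptor for ephrin ligands, was without overlap. Over all genes 14.1% were higher and 12.4% lower without overlap. In this list Ephb4 was at 13.7, 16.0 and 15.8 FPKM in the WT libraries and at 21.3, 19.4 and 18.2 in those of Mc4r KO mice (log2 fold change 0.37, limma adjusted p = 0.12). Npr3, the natriuretic peptide clearance receptor of endocardium, was the lowest at -0.94 (limma adjusted p = 0.397), with the groups overlapping, and at -0.48 without WT replicate 3. Of the lymphatic genes the chemokine Ccl21a was the highest, at 1.05 for the row with a mean of 5.84 FPKM (limma adjusted p = 0.403) and 1.65 without WT replicate 3, with overlap between the groups. Prox1, a transcription factor that cardiomyocytes also express, was at 9.59, 8.37 and 7.35 FPKM in the WT libraries and at 6.16, 6.002 and 6.63 in those of Mc4r KO mice, without overlap (log2 fold change -0.42, limma adjusted p = 0.123).

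**Figure D4:**
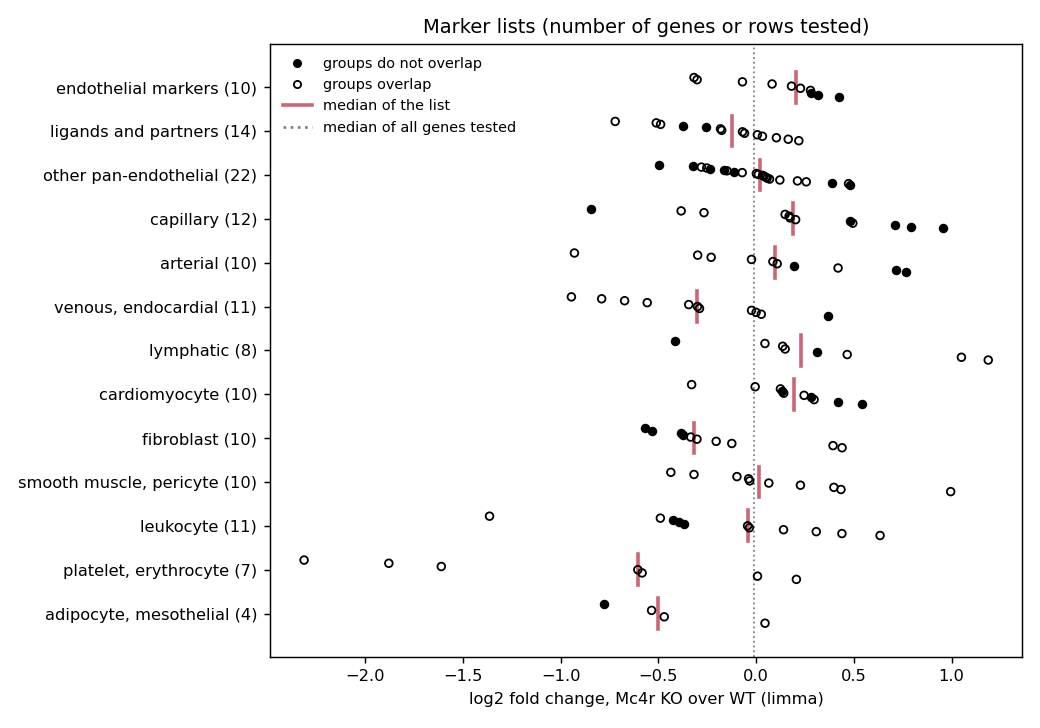
Log2 fold change of the Mc4r KO mice over the WT mice (horizontal axis) for each tested gene of the endothelial markers and of the other marker lists, with the number tested in brackets. Filled circles are genes whose 3 Mc4r KO and 3 WT libraries do not overlap, red bars are list medians and the dotted line is the median of all genes (-0.011). The endothelial markers have a median of 0.20, and the capillary genes spread from -0.85 to 0.96.

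Markers of the other cells in the tissue were measured in the same libraries. The summed FPKM of the 10 endothelial markers was 248 to 272 in the WT libraries and 260 to 305 in those of Mc4r KO mice. That of 10 cardiomyocyte markers was 18112 to 19556 and 22148 to 23966, without overlap. Their median log2 fold change was 0.19. After scaling outside the mitochondrial chromosome it was -0.0026, against -0.19 for all genes, so its size depended on the scaling. The median of all genes was -0.011 on the deposited scale, so the cardiomyocyte median lay above it on both scales. Of these 10, Actc1 was the highest (log2 fold change 0.54, limma adjusted p = 0.18). Pln was the lowest (-0.33, limma adjusted p = 0.303, and -0.50 without WT replicate 3). The 10 fibroblast markers summed to 636 to 878 and 557 to 733 FPKM, and 4 of them (Dcn, Lum, Pdgfra and Ddr2) were lower without overlap, beside 12.4% of all genes, with Lum the lowest at -0.57 (limma adjusted p = 0.107) and Col1a1 the highest at 0.44 (limma adjusted p = 0.371). Without WT replicate 3 Col1a1 was at 0.69, and the median of the fibroblast list was -0.071 instead of -0.32. No gene of these lists was called, beside 0.46% of all genes tested. Their part in the endothelial differences was not tested.

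The 10 smooth muscle and pericyte markers summed to 293 to 379 FPKM in the WT libraries and 264 to 357 in those of Mc4r KO mice. Their log2 fold changes ran from -0.44 (Abcc9) to 0.99 (Cnn1). The groups overlapped in all 10, where 14.1% of all genes were higher and 12.4% lower without overlap. The 12 leukocyte markers summed to 185 to 288 and 229 to 291 FPKM. Of these, C1qa was the highest at 0.63, with 22.6, 22.7 and 51.2 FPKM in the WT libraries and 39.7 to 53.8 in those of Mc4r KO mice. Without WT replicate 3 it was called, at 1.02 (limma adjusted p = 0.0229). Cd68 was the lowest gene with a mean FPKM of at least 1, at -0.42. Cd68, Csf1r and Mrc1 were lower without overlap, beside 12.4% of all genes. Platelet and erythrocyte genes summed to 774 to 5639 FPKM in the WT libraries and 570 to 1457 in those of Mc4r KO mice. Of the 7 tested, 2 had a positive and 5 a negative log2 fold change, from -2.31 to 0.21, where 48.8% of all genes were positive. Alas2 was at -2.31 and Ppbp at -0.58 (-0.30 without WT replicate 3), and Gp1bb had 0 reads in every library. Of the adipocyte genes, Adipoq had at most 3 reads and Lep 0 in every library. The mesothelial genes Upk3b and Msln were at 11.64 and 8.47 FPKM in WT replicate 3 and at most 3.05 in the other 5 libraries, with log2 fold changes of -0.53 and -0.47, which were 0.33 and 0.30 without that library. The other mesothelial genes split without it, with Wt1 at -0.58 and Krt19 at 0.73. With all libraries the 4 tested genes of this list ran from -0.78 to 0.045, and 1 was lower without overlap, beside 12.4% of all genes.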

How the data were processed

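Polyadenylated RNA from 6 hearts was sequenced in paired ends. Per the labels and the methods of the study, reads were filtered, aligned to mm10 with HISAT2 (2.0.5) and counted on genes with featureCounts (v1.5.0-p3), and the authors deposited FPKM per gene and library. The use of strand is not given in the sources used here. Multiplied by gene length, 100% of the values fell on whole reads (within 0.05), so read numbers could be recovered.

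Limma (3.58.1, R 4.3.3) was run with the empirical Bayes trend on log2(FPKM + 0.1), after median-of-ratios scaling (factor 1 in each library), for genes averaging 0.1 FPKM or more. Such fold changes understate the change of weakly expressed genes. Because each factor was 1, the alternative on unscaled FPKM repeats the reported fit. P-values are two-sided, and those over 3 mice per group that are called exact come from permutations of log2 values. The script was tested on simulated data. Positions, exon overlaps and shared words of 50 bases came from GENCODE M21, which held 99.8% of the identifiers. At most 0.998% of the words of any marker occurred in other genes, except Egfl7 with 4.94%. The depth limits precision, and read counts cover counting error only.

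The members and the 13 lists were chosen with earlier results of these data known. Named genes are the 10 markers, their partners, the gene at either end of each list among those averaging 1 FPKM or more, and the 5 genes most like the mean of the markers. Others (Gpihbp1, the genes without overlap in a list, Vwf-like genes and checks of tissue) were picked with their values in view. Alternatives to the reported fit used a pseudocount of 1 or 0.01, no filter, a filter at 1 FPKM, the unscaled FPKM, quantile normalization, scaling outside the mitochondrial chromosome, no trend, array weights, robust moderation, a block for the replicate number, the mitochondrial share as a covariate, limma voom on recovered reads, a fold change above 1.5 or without limit, protein-coding genes only, and fits without each library.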

Additional observations from a re-analysis of the deposited data

How the results depend on the processing

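The number of endothelial markers called was 0 in the reported fit and under all 22 alternatives. The number of all genes called was 83. It was 44 with a pseudocount of 1, 22 without a filter, 147 at a mean FPKM of at least 1, 49 after quantile normalization, 41 after scaling outside the mitochondrial chromosome, 21 without trend, 435 with array weights, 2 with the mitochondrial share as a covariate, 317 with limma voom, 204 over protein-coding genes, and from 0 to 632 in the fits without 1 library. The 632 came without WT replicate 3, and 0 came without WT replicate 1, WT replicate 2 or Mc4r KO replicate 3 (2600, 2830 and 2828 genes at an unadjusted p under 0.05, limma). The fit without WT replicate 3 keeps the WT libraries with the highest mitochondrial shares, 59.3% and 57.4%.

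The median log2 fold change of the markers, 0.20, was 0.073 after quantile normalization, 0.0093 after scaling outside the mitochondrial chromosome, 0.13 with array weights and 0.27 with the mitochondrial share as a covariate. Without 1 library it ran from 0.14 to 0.26. Of the other listed genes 0 were called, and 2 were at a mean FPKM of at least 1, 3 with array weights, 5 with limma voom, 1 with a fold change above 1.5, 1 without a limit on it, 2 over protein-coding genes and 0 to 3 without 1 library. Signs changed for Cdh5 (0.26 with the mitochondrial share as a covariate and 0.0017 without WT replicate 2, the upper end of a range from -0.19 without 1 library), for Pecam1 (-0.014 after scaling outside the mitochondrial chromosome) and for Cldn5 (-0.014 after quantile normalization, -0.11 after scaling outside the mitochondrial chromosome, -0.23 with the covariate, -0.097 without WT replicate 1 and -0.019 without Mc4r KO replicate 2). Without Mc4r KO replicate 3 Cldn5 kept its sign, at 0.25, the highest value without 1 library. The cause was not tested.

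With the replicate number as a block 11 genes were called. The deviations of same-numbered libraries from their group means correlated at -0.141, 0.007 and -0.082. Those of differently numbered libraries correlated between -0.032 and 0.115. No pairing was seen, but so few libraries cannot exclude one. The quasi-likelihood test of edgeR on the recovered reads was not run, and limma voom was the test run on those reads.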

Other observations

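Of the 11 venous and endocardial genes, some but not all shared the libraries in which Vwf was highest. Vwf was highest in WT replicate 3 (10.2 FPKM) and Mc4r KO replicate 1 (7.83). Plvap, a protein of fenestrated and endocardial endothelium, was likewise highest in those libraries, at 14.1 and 8.98 FPKM, with 2.05 to 5.90 in the other 4. Npr3 was at 7.75 and 3.84 FPKM there and at 0.932 to 3.71 in the other 4. Cytl1 was at 13.96 and 14.9 FPKM there and at 4.61 to 8.31 in the other 4. These genes were chosen after their values were seen, and other genes of the list did not follow. Aplnr was at 6.14 and 6.27 FPKM in those libraries and at 14.9, 11.8, 8.95 and 4.67 in the other 4, and Sele was at 0.383 and 0.465 there and at 0.235 to 1.19 in the other 4.

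The genes outside all lists whose log2 levels over the 6 libraries were most like the mean of the standardized markers were App, Tle2, Retreg3, Pa2g4 and Rnf31, with Pearson correlations between 0.970 and 0.985. The points share their libraries and scaling, so that this is a description over 6 values. App was at 16.5, 17.6 and 16.6 FPKM in the WT libraries and at 19.0, 18.2 and 16.5 in those of Mc4r KO mice.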
